A study of Mus musculus with 6 samples.

Results

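The retina has horizontal cells, which carry lateral feedback to photoreceptors in the outer plexiform layer, and amacrine cells, the inhibitory interneurons of the inner plexiform layer. Both arise from related precursors, in which PTF1A directs cells to either fate, PROX1, ONECUT1, ONECUT2 and LHX1 act in the horizontal branch, and the AP-2 factors TFAP2A and TFAP2B act below PTF1A. PAX6 keeps retinal progenitors multipotent and stays on in amacrine and ganglion cells, and the calcium-binding proteins calbindin (Calb1) and calretinin (Calb2) are the usual stains for these interneurons in mouse retina. These 10 genes were chosen by symbol, and the deposited table held 1 gene ID for each, among 54532 gene IDs in all.

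The RNA came from retinas taken at postnatal day 17 from C57BL/6J mice of wild-type genotype, with 3 libraries labelled OIR and 3 labelled normal. OIR usually stands for oxygen-induced retinopathy, a mouse model in which raised oxygen stops vessel growth in the young retina and the move back to ordinary air leaves the tissue short of oxygen and prone to vessel tufts. Both groups share genotype, strain and age. The sources used here do not give the oxygen schedule, the number of retinas per library or the sex of the mice.

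Libraries held 15818168 to 17163513 counts, and the first principal component, with 54.9% of the variance, separated OIR from normal libraries. All 10 rod markers and all 10 bipolar markers listed had enough counts to be tested, as the labelled tissue would have. Levels are given as CPM (counts per 1e6 counts, TMM-scaled). Lens RNA differed between libraries: the summed level of 12 lens genes was 85.2, 382 and 6331 CPM in OIR 1, 2 and 3, against 10.96, 378 and 387 CPM in normal 1, 2 and 3. None of the 12 passed edgeR's test, while 9 had an unadjusted p under 0.05, all higher in OIR, and neither DESeq2 nor limma-voom called any. Since Prox1 and Pax6 are also lens genes, values without OIR 3 stand beside the results. Xist and Y-linked reads marked 1 male and 2 female OIR libraries, against 2 male and 1 female normal libraries. In RNA of a whole tissue, fewer cells of a type and less RNA per cell cannot be told apart.

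Of the 10 identity genes, 6 fell in OIR retina, none rose, Calb2, Onecut1 and Onecut2 did not pass, and Ptf1a had too few counts to be tested. The test was the quasi-likelihood F-test of edgeR over 17108 genes, with a Benjamini-Hochberg adjusted p below 0.05 as the threshold. It called 19.8% of all genes in either direction, 8.73% lower and 11.1% higher. All 9 tested identity genes had a log2 fold change below 0, with a median of −0.35, against a median of 0.01 over all genes tested, of which 8241 were below 0. The falls were largest in Calb1 and Lhx1, smaller in Tfap2b and Prox1, and smallest in Tfap2a and Pax6. The count of 0 risen genes was the same at an unadjusted p under 0.05 in edgeR, in DESeq2 and in limma-voom. Without OIR 3 the test called 5 of the 9 genes lower. In 6 genes every OIR library was below every normal library, which held for 18.1% of all genes tested. Another 18.7% of all genes had every OIR library above every normal one, 36.8% in either direction.

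**Figure D1:**
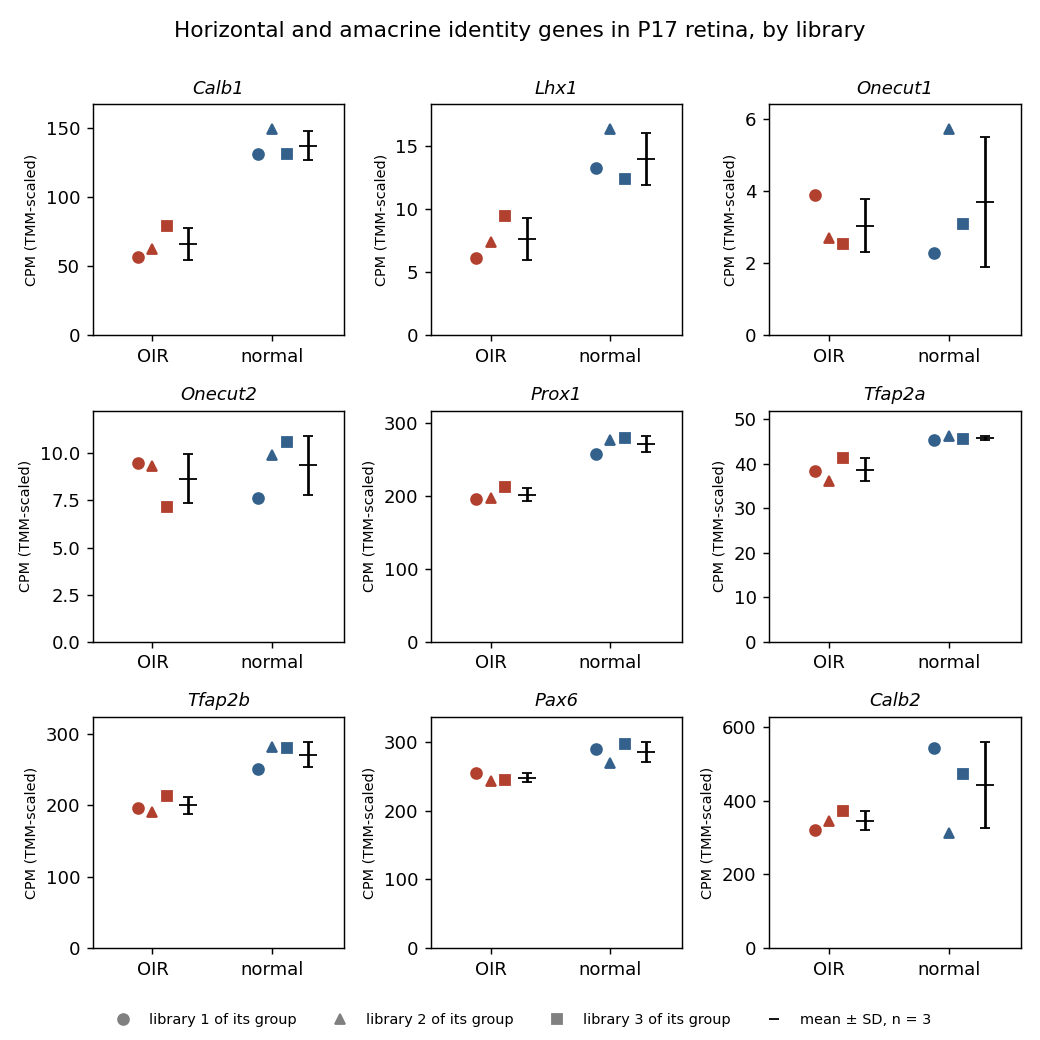
Level of each of the 9 tested identity genes in CPM (y axis, linear from 0) in the 3 OIR and the 3 normal libraries; symbols mark the library number within its group, and the black bar gives mean ± SD. Calb1, Lhx1, Prox1, Tfap2a, Tfap2b and Pax6 have no overlap between groups, whereas normal library 2 is the highest for Onecut1, at 5.72 CPM, and the lowest for Calb2, at 312 CPM.

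RefSeq promoter windows of GRCm38.p6, from 250 bases before to 50 after a start, were at hand for 7 of the 10 identity genes, 10 windows in all. To set genes that fell beside one that did not pass, windows of Lhx1, Prox1 and Tfap2b and of Onecut1 are shown 5′ to 3′. Capitals mark any match, on either strand, to GCCNNNGGC (an AP-2 site), ATTGAT (an ONECUT core), TAATTA (a homeodomain core) or ACGTG (the core of a hypoxia response element), where the only overlap is the pair of ACGTG matches on opposite strands in Onecut1.
Lhx1: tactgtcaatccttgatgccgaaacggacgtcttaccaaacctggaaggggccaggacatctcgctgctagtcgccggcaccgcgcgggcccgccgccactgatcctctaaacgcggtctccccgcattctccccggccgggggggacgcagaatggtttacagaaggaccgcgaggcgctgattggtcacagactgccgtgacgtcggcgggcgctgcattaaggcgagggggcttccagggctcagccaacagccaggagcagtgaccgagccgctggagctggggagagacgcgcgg
Prox1: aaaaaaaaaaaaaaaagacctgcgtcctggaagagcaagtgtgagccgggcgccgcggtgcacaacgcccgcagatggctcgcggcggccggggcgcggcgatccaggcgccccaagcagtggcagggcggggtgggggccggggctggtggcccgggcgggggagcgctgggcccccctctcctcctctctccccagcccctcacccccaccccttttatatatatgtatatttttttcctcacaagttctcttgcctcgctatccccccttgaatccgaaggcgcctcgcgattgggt
Tfap2b: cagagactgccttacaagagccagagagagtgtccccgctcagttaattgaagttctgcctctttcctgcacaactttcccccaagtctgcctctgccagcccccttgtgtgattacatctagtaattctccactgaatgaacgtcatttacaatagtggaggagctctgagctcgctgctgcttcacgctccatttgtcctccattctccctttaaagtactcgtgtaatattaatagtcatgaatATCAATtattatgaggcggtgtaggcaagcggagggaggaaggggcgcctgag
Onecut1: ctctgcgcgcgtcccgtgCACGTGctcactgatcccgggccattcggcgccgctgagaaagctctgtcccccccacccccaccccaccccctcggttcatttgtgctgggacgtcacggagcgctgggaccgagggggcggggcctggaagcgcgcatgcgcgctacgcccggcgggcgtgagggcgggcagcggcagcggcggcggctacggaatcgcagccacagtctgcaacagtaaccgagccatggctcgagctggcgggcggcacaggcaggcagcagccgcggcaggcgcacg
The Lhx1 window is chr11:84525485-84525784 on the minus strand. That of Prox1 is chr1:190170778-190171077 on the minus strand, wholly upstream of the deposited gene model. The other Prox1 window, not shown, lies inside that model and held no match to any of these sequences. That of Tfap2b is chr1:19211804-19212103 on the plus strand, inside its deposited gene model, and that of Onecut1 chr9:74861671-74861970 on the plus strand. The Tfap2b window held the ONECUT core across the start, from offset −3, a sequence found in 7.54% of 32851 windows of the same length. The ACGTG core, present in 19.6% of all windows, was found in Onecut1, which did not pass, and in neither Lhx1, Prox1 nor Tfap2b. The GC content was 65.7% in Lhx1, 64.3% in Prox1, 48.3% in Tfap2b and 73.0% in Onecut1. Among the other windows, AP-2 sites (16.6% of all windows) lay in Ptf1a and in the upstream window of Pax6, and TAATTA (5.29% of all windows) in a window of Tfap2a. The downstream window of Pax6, a gene that fell, also held ACGTG. A match is a description of the letters and not a site in use, and no match says only that these letters are not in the window.

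Calb1 had the lowest adjusted p of the set. The gene (ENSMUSG00000028222, chromosome 4, 15881264 to 15908064, plus strand, mm10) encodes a calcium buffer that fills horizontal cells and marks some amacrine and ganglion cells. It had 57.05, 62.4 and 79.0 CPM in OIR 1, 2 and 3, against 132, 149.5 and 132 CPM in normal 1, 2 and 3. The highest OIR library thus lay far below the lowest normal library. Means were 66.1 ± 11.4 CPM in OIR and 138 ± 10.3 CPM in normal retina (SD, n = 3 each). OIR retina held 48.1% of the normal level, a log2 fold change of −1.06 with a standard error of 0.115 (edgeR adjusted p of 0.00012). Without OIR 3, the OIR library with the highest Calb1, the log2 fold change was −1.22. Within males the difference in mean log2 CPM was −1.08, and within females −1.15.

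Lhx1, a LIM homeodomain factor that horizontal cells need to settle in their layer, also fell, at a much lower level of expression. This gene (ENSMUSG00000018698, chromosome 11, 84518284 to 84525535, minus strand) had 6.13, 7.37 and 9.46 CPM in the OIR libraries, against 13.3, 16.4 and 12.4 CPM in the normal libraries. Behind these stood 104 to 161 counts per OIR library and 193 to 269 per normal library, and the groups did not overlap. Means were 7.65 ± 1.68 CPM in OIR and 14.0 ± 2.07 CPM in normal retina (SD, n = 3 each). The OIR level was 54.6% of normal (log2 fold change −0.87, standard error 0.178, edgeR adjusted p of 0.00614). The difference was −0.79 within males and −1.09 within females in mean log2 CPM, and the log2 fold change was −1.07 without OIR 3.

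The cut homeodomain factors Onecut1 and Onecut2, which are needed to make horizontal cells and are also found in ganglion cells, did not pass. Onecut1 (ENSMUSG00000043013, chromosome 9, 74861921 to 74891781, plus strand) had 3.89, 2.71 and 2.53 CPM in OIR, against 2.28, 5.72 and 3.09 CPM in normal libraries. Its range in the normal group enclosed all OIR values, and 38 to 94 counts per library gave little precision. The log2 fold change was −0.28 with an approximate 95% interval of −1.22 to 0.66 (edgeR adjusted p of 0.616), and it was 0.18 without normal 2. Onecut2 (ENSMUSG00000045991, chromosome 18, 64340364 to 64398488, plus strand) had 9.49, 9.32 and 7.17 CPM in OIR, against 7.61, 9.91 and 10.6 CPM in normal libraries. These groups overlapped, with a log2 fold change of −0.11, an interval of −0.59 to 0.37 and an edgeR adjusted p of 0.699. That interval does not reach −0.87, the estimate for Lhx1, whereas the interval for Onecut1 does. The interval for Lhx1 itself, −1.37 to −0.38, overlaps those of both Onecut genes, so a different change is not shown. The missing calls do not show that these genes were level.

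**Figure D2:**
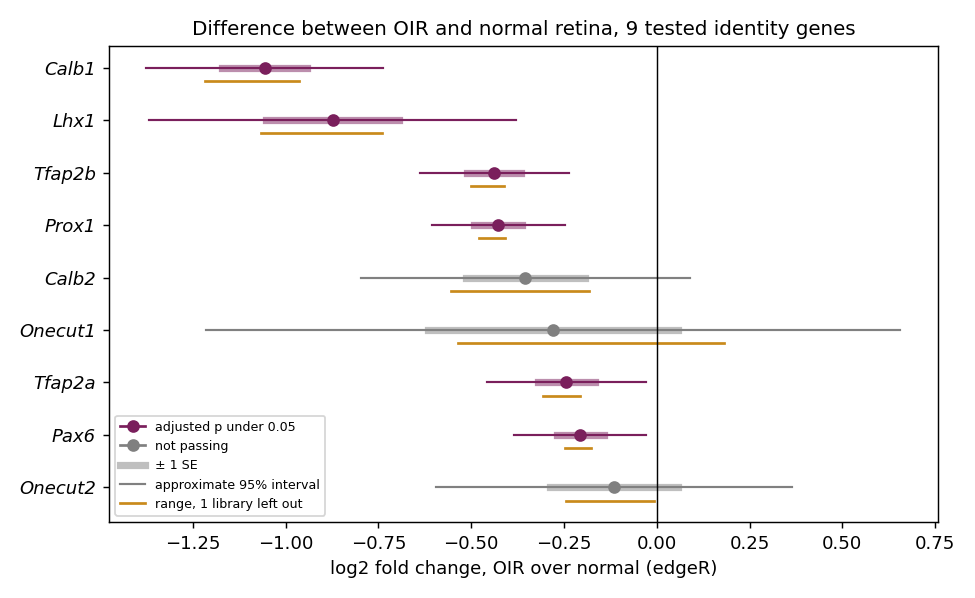
Log2 fold change of OIR over normal retina (x axis) for the 9 tested identity genes, with ± 1 standard error (thick), the approximate 95% interval (thin) and the range when 1 library is left out (ochre, drawn below each gene). All points lie left of 0; the ochre range reaches past 0 for Onecut1 alone.

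Whether identity genes changed unequally was also looked at as ratios of raw counts within each library, which need no scaling between libraries. Lhx1 per Onecut2 was 0.646, 0.791 and 1.32 in the OIR libraries, against 1.75, 1.65 and 1.17 in the normal libraries. OIR 3 lay above normal 3, so the groups overlapped, and an exact two-sided permutation test gave p = 0.2 (0.24 adjusted over the 6 ratios computed). Lhx1 per Onecut1 ran from 1.58 to 3.74 in OIR and from 2.86 to 5.84 in normal libraries, also with an exact p of 0.2. An unequal change of Lhx1 and the Onecut genes was thus not shown. This test cannot go below 0.1 with 3 against 3, so it does not decide whether they changed equally. Calb1 per Pax6 was 0.224, 0.256 and 0.322 in OIR, against 0.454, 0.554 and 0.442 in normal libraries. The groups did not overlap, and the exact p was 0.1, the smallest that 3 against 3 allow (0.2 adjusted over the 6 ratios). These ratios were chosen after the values of the genes had been seen.

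**Figure D3:**
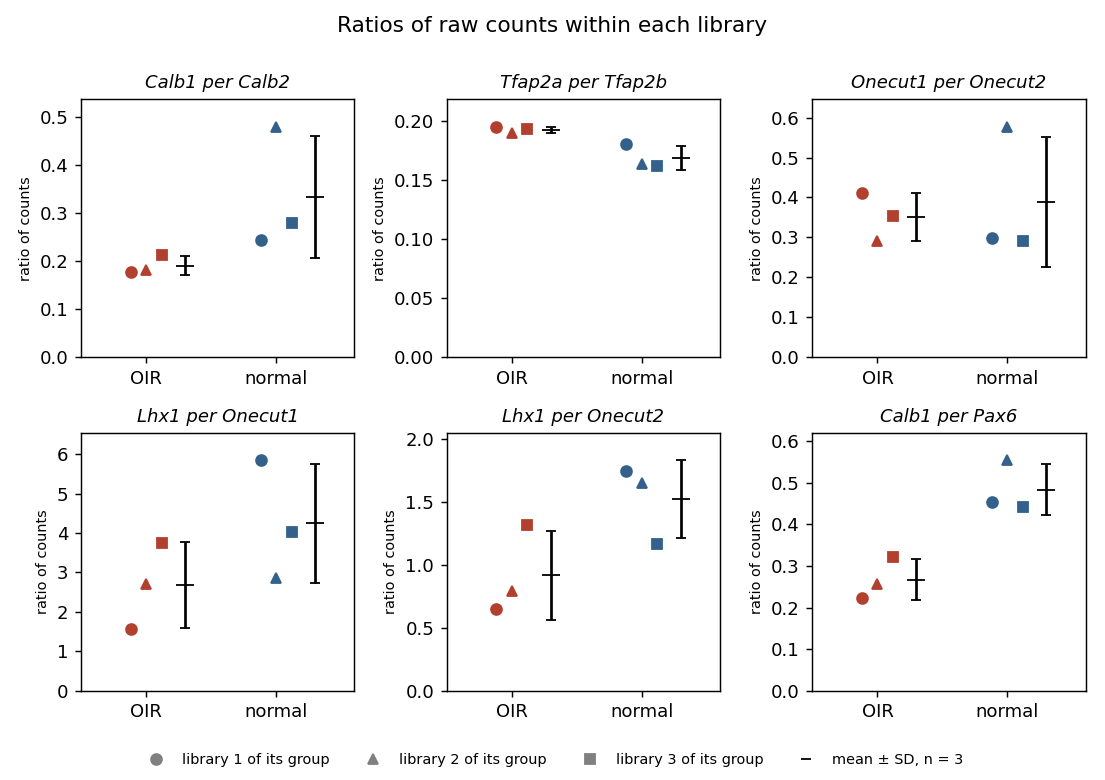
Ratios of raw counts of gene pairs within each library (y axes, no unit, linear from 0) for OIR and normal retina, with symbols for the library number and mean ± SD in black. Calb1 per Pax6 separates the groups, at 0.267 ± 0.0504 in OIR and 0.483 ± 0.0617 in normal libraries, while Onecut1 per Onecut2 does not.

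Prox1, a prospero homeodomain factor that drives horizontal cell fate and is kept in horizontal, AII amacrine and some bipolar cells, fell by less than Calb1 and Lhx1 in its point estimate. The gene (ENSMUSG00000010175, chromosome 1, 190118035 to 190170714, minus strand) had 196, 197 and 213 CPM in OIR, against 258, 277 and 279 CPM in normal libraries. The groups stood well apart, at 202 ± 9.49 CPM in OIR and 271 ± 11.5 CPM in normal retina (SD, n = 3 each). OIR retina held 74.4% of the normal level (log2 fold change −0.43, standard error 0.0647, edgeR adjusted p of 0.00111). Without OIR 3, the library rich in lens RNA, the log2 fold change was −0.48. Prox1 is also known in lymphatic endothelium, of whose 6 listed genes 4 were tested: Flt4 and Pdpn rose, and Lyve1 and Reln fell. Their summed level was 313 to 344 CPM in OIR and 379.6 to 474 CPM in normal libraries, and Ccl21a had 0 counts in every library. Reln gave most of that sum, with means of 214 CPM in OIR and 347 CPM in normal retina. The sum is thus mainly a value of Reln and not a measure of lymphatic endothelium. The antisense genes Prox1os and Gm28172 overlap Prox1, and since the strand setting of the counting is not known, reads of such pairs cannot be told apart. Prox1os had 63 to 89 counts in OIR and 77 to 95 in normal libraries, far below the 3322 to 4553 counts of Prox1.

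Ptf1a, the basic helix-loop-helix factor that both cell classes need at birth, was at the edge of detection. It (ENSMUSG00000026735, chromosome 2, 19445663 to 19447501, plus strand) had 0 counts in each OIR library, against 0, 3 and 2 counts in normal 1, 2 and 3. Since no library was above 3 counts, no fold is given, and 3 counts over the OIR libraries would be 0.0589 CPM. Foxn4, which acts above Ptf1a in the embryonic retina and was singled out after its values were seen, was as sparse, with 0 counts over the OIR and 7 over the normal libraries. Of the listed genes for partners of PTF1A, Rbpjl was singled out after its values were seen, with 2, 0 and 2 counts in OIR and 0 in each normal library, too few to be tested. The E-protein gene Tcf3 rose to 49.6 ± 1.24 CPM in OIR, against 36.0 ± 2.59 CPM in normal retina (SD, n = 3 each; edgeR adjusted p of 0.00229).

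Tfap2b and Tfap2a, the AP-2 factors of amacrine and horizontal cells, both passed. Tfap2b (ENSMUSG00000025927, chromosome 1, 19208914 to 19238576, plus strand) had 197, 190.1 and 214 CPM in OIR, against 251, 282 and 281 CPM in normal libraries. Its groups did not overlap, the OIR level was 73.9% of normal, and the log2 fold change was −0.44 (standard error 0.0724, edgeR adjusted p of 0.00189). Tfap2a (ENSMUSG00000021359, chromosome 13, 40715302 to 40738376, minus strand) had 38.4, 36.1 and 41.3 CPM in OIR, against 45.3, 46.3 and 45.5 CPM in normal libraries. Every OIR value was lower, and the coefficient of variation of the normal values was 1.13%, but the size was small: the OIR level was 84.5% of normal (log2 fold change −0.24, standard error 0.0768, edgeR adjusted p of 0.0479). This call was lost in 10 of the 14 other fits, among them DESeq2 and limma-voom and those without OIR 1, OIR 2, normal 2 or normal 3 (log2 fold change −0.31 to −0.21 over the fits with 1 library left out). Tfap2a per Tfap2b was 0.193 ± 0.00267 in OIR and 0.169 ± 0.0103 in normal libraries. Those groups did not overlap (exact permutation p of 0.1, 0.2 adjusted over the 6 ratios). Antisense genes overlapping Tfap2a had at most 24 counts in any library.

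Pax6, the paired homeodomain factor, is expressed in amacrine and ganglion cells and more weakly in horizontal cells and Müller glia. It (ENSMUSG00000027168, chromosome 2, 105668900 to 105697364, plus strand) had 255, 243 and 245 CPM in OIR, against 290.0, 269.7 and 298 CPM in normal libraries. All OIR values were below all normal ones, at 86.7% of the normal level (log2 fold change −0.21, standard error 0.0640, edgeR adjusted p of 0.0452). This call too was lost in 9 of the 14 other fits, among them the fits without OIR 1, OIR 2, OIR 3, normal 1 or normal 3, with log2 fold changes of −0.25 to −0.18 when 1 library was left out and −0.21 without the lens-rich OIR 3. Pax6 is also a gene of the ciliary and pigmented epithelia, whose 10 markers fell in 6 cases, with summed levels of 159 to 200.3 CPM in OIR and 263 to 465 CPM in normal libraries. Their part in the result was not tested. The antisense gene Pax6os1, which overlaps the start of Pax6, had 71 to 112 counts per OIR library and 78 to 100 per normal library.

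Calb2 was the most abundant identity gene and did not pass. Calretinin, its product, fills many amacrine cells, AII cells included, and many ganglion cells. The gene (ENSMUSG00000003657, chromosome 8, 110137502 to 110168210, minus strand) had 321, 344 and 372 CPM in OIR, against 541, 312 and 472 CPM in normal libraries. Normal 2 lay below all OIR libraries and normal 1 and 3 above them. The log2 fold change was −0.35 with an interval of −0.80 to 0.09 (edgeR adjusted p of 0.153), and without normal 2 it was −0.55 (adjusted p of 0.0017). Normal 2 was also the normal library lowest in the summed level of 12 ganglion cell markers, which was 1313, 1369 and 1464 CPM in OIR 1, 2 and 3, against 2066, 1327 and 1752 CPM in normal 1, 2 and 3. Of those markers 1 fell over all libraries and 6 fell without normal 2, and their part in the Calb2 values was not tested. Calb1 per Calb2 was 0.178, 0.181 and 0.212 in OIR, against 0.243, 0.478 and 0.279 in normal libraries, with no overlap (exact permutation p of 0.1, 0.2 adjusted over the 6 ratios).

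Levels of different genes were set side by side as CPM per kilobase of the deposited gene length. In OIR retina the order was Calb2 (198 ± 14.6 CPM per kilobase), Tfap2b (31.6 ± 1.92), Prox1 (24.1 ± 1.13), Pax6 (21.2 ± 0.556), Calb1 (13.6 ± 2.36), Tfap2a (7.87 ± 0.533), Lhx1 (1.88 ± 0.413), Onecut1 (0.740 ± 0.180) and Onecut2 (0.647 ± 0.0965), each as SD with n = 3. In that list only the libraries of Onecut1 and Onecut2 overlapped between neighbours. In normal retina Calb1 stood above Pax6, at 28.4 ± 2.13 against 24.4 ± 1.24 CPM per kilobase, and its range overlapped that of Prox1, at 32.3 ± 1.38. Calb1 was thus the gene that changed its place. Calretinin transcripts, at 253 ± 67.3 CPM per kilobase in normal retina, were far above the rest in both groups.

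**Figure D4:**
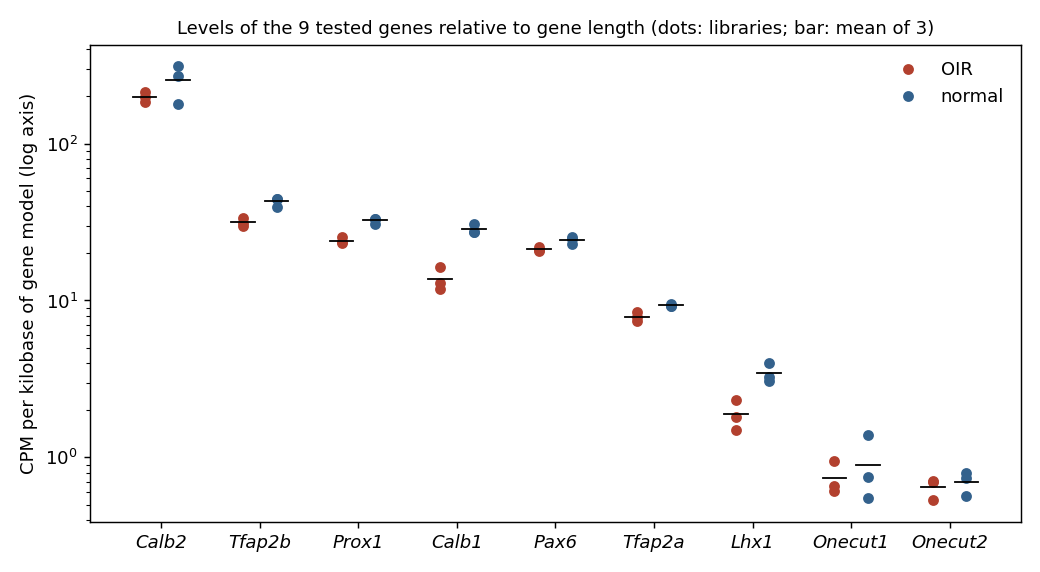
Levels of the 9 tested identity genes in CPM per kilobase of gene model (log y axis) in the 3 OIR and 3 normal libraries, dots for libraries and a bar for the mean. Calb1 is above Pax6 in normal retina and below it in OIR retina; Onecut1 and Onecut2 are the lowest, below 1.39 CPM per kilobase in all libraries but normal 2, where Onecut1 has that value.

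Other genes of horizontal cells also fell. Of 11 such genes, 5 fell, 1 rose and 5 did not pass, with a median log2 fold change of −0.38, against 0.01 over all genes. Among all genes tested, 8.73% were called lower and 11.1% higher. Gja10, the connexin of horizontal cell gap junctions, had the largest difference, with 2.26 ± 0.275 CPM in OIR and 5.90 ± 0.803 CPM in normal retina (SD, n = 3 each; log2 fold change −1.38, edgeR adjusted p of 0.00112). Onecut3, the paralogue of Onecut1 and Onecut2, fell to 4.83 ± 0.905 CPM in OIR, against 9.07 ± 0.448 CPM in normal retina (log2 fold change −0.91, adjusted p of 0.00414). The anion exchanger gene Slc4a3 fell to 115 ± 10.9 CPM in OIR, against 183 ± 8.31 CPM in normal retina (log2 fold change −0.66). Megf11, a receptor that spaces horizontal cells, and the septin gene Sept4 had log2 fold changes of −0.48 and −0.39. The gene that rose was the tropomyosin gene Tpm3 (log2 fold change 0.23, adjusted p of 0.0319), which is widely expressed and was named after its value was seen. That rise was not called in any of the fits without OIR 1, OIR 2, OIR 3, normal 2 or normal 3. Nefl and Nefm, which ganglion cells share, did not pass. Whether the fallen genes are particular to horizontal cells was not tested either. In normal retina Slc4a3 and Sept4, at 183 and 184 CPM, stood above Calb1, at 138 CPM.

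Amacrine transcription factor genes fell more often than they rose. Of 17 genes tested 6 fell and 1 rose, with a median log2 fold change of −0.27, and 3 fell in the fits without OIR 1, OIR 2 or normal 3. The shares over all genes tested were 8.73% lower and 11.1% higher. Prdm13, which promotes GABAergic and glycinergic amacrine cells, fell to 29.8 ± 4.13 CPM in OIR, against 44.5 ± 1.95 CPM in normal retina (SD, n = 3 each; edgeR adjusted p of 0.00297). Tfap2c, a further AP-2 gene, and Neurod4 had log2 fold changes of −0.53 and −0.37. Tcf4, a broad E-protein gene, rose by 0.45 on the log2 scale. That call was lost without OIR 1, OIR 2 or normal 3 (adjusted p of 0.0668, 0.0592 and 0.0561 in edgeR). Whether the fallen genes are particular to amacrine cells was not tested either.

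Of 17 amacrine transmitter and synaptic genes, 11 fell, none rose and 6 did not pass, with a median log2 fold change of −0.39. Over all genes tested, 8.73% were called lower and 11.1% higher. Among those that did not pass was Gad2 (log2 fold change −0.15, edgeR adjusted p of 0.294). No rise passed at an unadjusted p under 0.05 in edgeR, nor in DESeq2 or limma-voom. Gad1, which makes GABA, fell to 226 ± 17.8 CPM in OIR, against 354 ± 21.1 CPM in normal retina (SD, n = 3 each; log2 fold change −0.65, edgeR adjusted p of 0.000225). The glycine transporter gene Slc6a9 fell to 81.6 ± 8.87 CPM in OIR, against 131 ± 9.50 CPM in normal retina. The log2 fold change was −0.57 for Slc17a8, the vesicular glutamate transporter gene of a small amacrine class. Leaving out 1 library gave 6 to 11 falls, with 6 without OIR 1 or normal 3 and 7 without OIR 2.

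**Figure D5:**
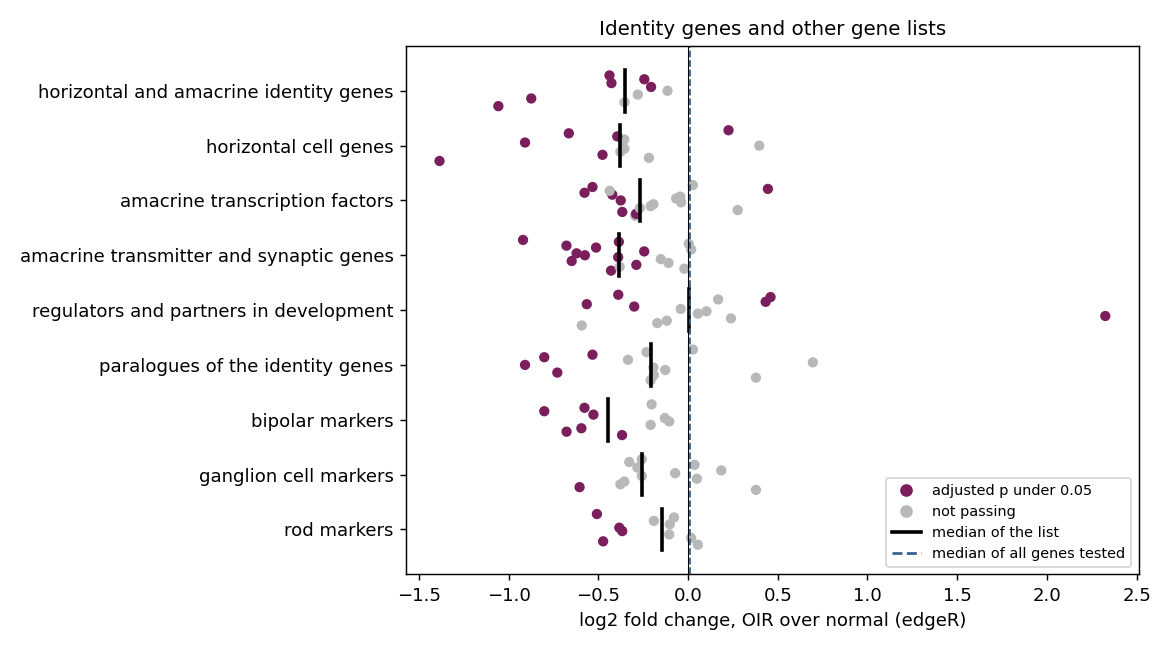
Log2 fold change of OIR over normal retina (x axis) for the tested genes of each list, purple where the edgeR adjusted p is under 0.05 and grey otherwise, with the list's median in black and the median of all genes tested as a dashed line. The medians of the identity genes (−0.35), of the bipolar markers (−0.45) and of the rod markers (−0.15) all lie left of the dashed line.

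Genes that act before or beside the identity genes in development did not share a direction. Of 14 tested, 3 rose and 3 fell, where 11.1% of all genes tested were called higher and 8.73% lower. The proneural factor gene Neurog2 rose to 24.4 ± 2.87 CPM in OIR, against 4.84 ± 1.04 CPM in normal retina (SD, n = 3 each; log2 fold change 2.33, edgeR adjusted p of 8.28e-06). Six6, an eye field factor gene, had a log2 fold change of −0.56. Among 13 tested paralogues of the identity genes 4 fell, and none rose by edgeR, also at an unadjusted p under 0.05, by DESeq2 or by limma-voom. Besides Onecut3 and Tfap2c these were the LIM gene Lhx3, with a log2 fold change of −0.73, and Scgn, a calcium-binding relative of calbindin found in cone bipolar cells. Onecut3, Tfap2c and Scgn are also counted among the fallen horizontal cell genes, amacrine transcription factors and bipolar markers, in that order. Scgn fell to 50.7 ± 5.95 CPM in OIR, against 88.3 ± 2.30 CPM in normal retina (log2 fold change −0.80, adjusted p of 0.000163).

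Markers of some other retinal cells fell as well, where 8.73% of all genes tested were called lower and 11.1% higher. Bipolar markers fell in 6 of 10 cases, with a median log2 fold change of −0.45 and sums of 1312 to 1366 CPM in OIR and 1764 to 1871 CPM in normal libraries. Rod markers fell in 4 of 10 cases with a median of −0.15, and ganglion cell markers in 1 of 12 cases with a median of −0.26. Müller glia markers fell in 5 of 12 cases and rose in 2, with sums of 3943 to 4719 CPM in OIR and 5018 to 5872 CPM in normal libraries. Their part in the falls of the identity genes was not tested. Of 10 corneal and conjunctival markers 2 had enough counts to be tested and 1 of these fell, with sums of 2.95 to 3.70 CPM in OIR and 4.01 to 4.50 CPM in normal libraries.

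The genes most like Calb1 over the 6 libraries, among 10789 genes with a mean of at least 10 CPM, were D1Ertd622e, Enox1 and Synrg. Pearson's r of log2 CPM with Calb1 was 0.996, 0.995 and 0.994, over 6 libraries that share the difference between the groups. Their log2 fold changes were −0.34, −0.56 and −0.22, each smaller than that of Calb1.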

How the data were processed

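The authors deposited raw counts per gene for 6 libraries with gene position and length. The submitters' processing notes name mm10, featureCounts 1.5.0-p3 and HISAT2 2.0.5, and also fastp, CASAVA 1.8 and, in version 1.20.0, DESeq2. The sources used here give neither the annotation nor the strand setting; per the labels' protocols, TRIzol and NEBNext Ultra kits were used. Columns were matched to samples by group, day and number in the titles. The gene length values, another column of the file in bases as the authors deposited it, served only for CPM per kilobase. Of the symbols, 27 altered to dates were restored by gene ID.

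The main test was edgeR 4.0.16 (R 4.3.3), the quasi-likelihood test on the deposited counts with TMM scaling, filterByExpr (minimum count 10, total 15), no covariate and Benjamini-Hochberg adjustment over 17108 genes. Standard errors are the log2 fold change over the square root of F, and intervals use 4 residual degrees of freedom. Within-sex values use edgeR log2 CPM with a prior count of 2. The tests were checked on simulated counts. Depth was 15818168 to 17163513 counts, and within a group the counts of any pair of libraries differed beyond sampling noise (7.20 to 23.1 in chi-square over its degrees of freedom), so all were kept. The labels do not state separate animals. By Xist and Y-linked reads each group held male and female libraries, so neither group was made only of repeats of the same RNA. Whether same-sex libraries within a group came from different mice is not known. Part of the variation behind the p-values may therefore be technical.

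The identity genes and lists were chosen with earlier results of these data known. Named were all 10 identity genes, overlapping antisense genes, per list up to 4 genes with the smallest adjusted p, and the 3 genes most correlated with the identity gene of smallest adjusted p; some genes this rule names are not reported here. Alternatives were DESeq2 1.42.0, limma-voom (limma 3.58.1), other scalings and filters, the replicate number as a block, sex, a threshold of 0.01 and each library left out. Each symbol had 1 ID, so summing IDs was not run.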

Additional observations from a re-analysis of the deposited data

Results flagged for a closer look

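Calb2 differed in opposite directions in the libraries of each sex, as read from Xist and Y-linked reads. OIR and normal libraries did not overlap within either sex, which says little with 1 library against 2. In females both OIR libraries, at 321 and 372 CPM, were above the single normal library, at 312 CPM. In males the single OIR library, at 344 CPM, was below both normal libraries, at 541 and 472 CPM. The OIR minus normal difference in mean log2 CPM was 0.15 in females and −0.55 in males, and 0.70 higher in females than in males. The difference between sexes was not tested, and it turns on normal 2, the single female normal library. Onecut1 and Onecut2 also had opposite signs, with −0.84 in females and 0.03 in males for Onecut1 and −0.26 in females and 0.05 in males for Onecut2. In both genes the male OIR library lay between the male normal libraries, and these differences between sexes were not tested either.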

How the results depend on the processing

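Calb1, Lhx1, Prox1 and Tfap2b passed in all 14 other fits. Over the fits with 1 library left out, log2 fold changes were −1.22 to −0.96 for Calb1, −1.07 to −0.74 for Lhx1, −0.48 to −0.41 for Prox1 and −0.50 to −0.41 for Tfap2b. The count of falls among the identity genes was 4 to 6 over all alternatives. Tfap2a no longer passed with DESeq2 (−0.25), limma-voom (−0.25), library totals alone (−0.20), no filter (−0.25), the replicate block (−0.25) or sex as a covariate (−0.27), and had −0.31 to −0.21 with 1 library left out. Pax6 no longer passed with library totals alone (−0.16), no filter (−0.21), the replicate block (−0.20) or sex as a covariate (−0.19), and had −0.25 to −0.18 with 1 library left out. Calb2 passed without a filter on low counts, at −0.36 against −0.35 in the main fit, so its adjusted p moved while its size hardly did. Calb1 and Lhx1 also had lower adjusted p in that fit, whereas Tfap2a and Pax6 no longer passed there. With 1 library left out Calb2 had −0.55 to −0.18, and it passed without normal 2. Onecut1 and Onecut2 passed in none of the 14, with adjusted p of 0.27 to 0.805 and of 0.344 to 0.984.

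Over all genes, 1237 to 2097 were higher and 761 to 1734 lower with 1 library left out, and 1116 and 647 at an adjusted p under 0.01. The rise among horizontal cell genes was gone (0 genes) without a filter, with the replicate block, with sex as a covariate and at 0.01, and was 0 to 2 with 1 library left out. Amacrine transcription factors fell in 3 cases with sex as a covariate and at 0.01, and in 3 to 9 with 1 library left out; their rise was lost at 0.01 (0 genes) and was 0 to 1 with 1 library left out. Amacrine transmitter genes fell in 5 cases at 0.01 and in 6 to 11 with 1 library left out. The cause was not tested. No result called in any of these fits changed its direction. Same-numbered OIR and normal libraries did not deviate together (correlations of 0.0612, −0.164 and 0.074). These libraries were of opposite sex and differed in lens RNA, so the correlations cannot decide whether the numbers pair the libraries. The block gave 4 falls among the identity genes, against 6. At 38 to 94 counts per library the depth limits Onecut1, and Ptf1a could not be tested.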
